A study of Mus musculus with 4 samples.

Results

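Long intergenic noncoding RNAs (lincRNAs) are RNA polymerase II transcripts from the stretches between protein-coding genes that do not code for a protein of notable length. Some act in the nucleus, as Xist does when it coats the inactive X chromosome and as Neat1 does when it scaffolds paraspeckles. Others are precursors, from which small nucleolar RNAs (snoRNAs) or microRNAs (miRNAs) are cut, and several have been linked to the commitment of mesenchymal cells to bone, muscle or fat.

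The lincRNAs described here were those expressed in C3H10T1/2 cells, a mouse mesenchymal stem cell (MSC) line that can be driven towards osteoblasts (OBs). They were selected on their mean level, as the rows that the deposited gene table types as lincRNA with a mean of at least 2 CPM (counts per 1000000 counts of a library) over its 4 libraries, so the levels themselves are a description. H19, Meg3, Rian, Mirg and Kcnq1ot1, noncoding RNAs of imprinted regions, were left out by name. This gave 192 lincRNAs of 54532 rows in all, out of 5703 lincRNA rows, of which 1929 had any count. Of the 5 genes left out, Meg3, Rian and Mirg would have met the level, H19 had a mean of 1.40 CPM and Kcnq1ot1 is typed as antisense. Just inside the limit were 4930558J18Rik (mean 2.02 CPM) and Gm29630 (2.01 CPM), and just outside it Gm47761 (1.999 CPM) and Gm43597 (1.98 CPM).

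Cells were first given, for 48 h, control siRNA or siRNA against DNMT1, the enzyme that copies CpG methylation onto newly made DNA. They were then left untreated (control and siDNMT1) or induced for 3 days with 50 µM ascorbic acid, 10 mM β-glycerophosphate and dexamethasone (OB and siDNMT1_OB). Each of the 4 groups held 1 library of mRNA from 1 cell line, so a difference between a pair of libraries could not be checked in replicates and is given no p-value across conditions. Library totals were 27367792, 25608719, 22296046 and 26912489 counts for control, siDNMT1, OB and siDNMT1_OB.

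Dnmt1 mRNA was checked first. Its level was 265 CPM in control, 132 CPM in siDNMT1, 85.4 CPM in OB and 93.1 CPM in the library labelled siDNMT1_OB, so Dnmt1 was not lower in that library than in OB. siDNMT1_OB is therefore used below as the label of a library, also where its comparisons are described by siRNA, and not as a measured loss of Dnmt1. Of 8 mesenchymal markers, 7 reached a mean of 1 CPM and their summed level ranged from 16612 to 20993 CPM. Of 6 osteoblast markers, only Runx2 and Spp1 reached 1 CPM, and Alpl, the early OB marker, held at most 2 counts in any library. The summed level of the osteoblast markers was 624, 302, 260 and 359 CPM in control, siDNMT1, OB and siDNMT1_OB. Spp1 stood at 548, 206, 187 and 271 CPM and Runx2 at 75.5, 96.0, 72.7 and 87.0 CPM in the same order, so neither was higher in OB than in control. Summed levels of the 3 endothelial and the 3 epithelial markers stayed at or under 1.03 CPM, and those of the 3 blood markers at or under 10.3 CPM.

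The log2 fold change was taken from CPM scaled by TMM (trimmed mean of M values), with a prior count of 2. A lincRNA was called higher or lower when that value was at least 1 in size and the p-value of a two-sided exact binomial test on the read counts of the pair of libraries, adjusted by Benjamini-Hochberg over 13233 genes, fell under 0.05. That test compares libraries, not conditions. Intervals are exact (Clopper-Pearson) 95% intervals of counting error only, since the reads carried no molecular identifiers.

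Several of these lincRNAs carry miRNA hairpins, and the mature sequences show which miRNAs the measured host transcripts contain. By position on the same strand, 11 of the 192 lincRNAs held 22 miRNA hairpins, counting the 39 mature sequences of the RefSeq table used here (GRCm38.p6) that lie wholly within a lincRNA. By gene annotation, exons of Snhg4 and Gm26532 also overlap Mir1949 and Mir24-2, which were not among these matches. The hosts of the 11 that were called after OB induction are shown with their leading arms, the seed (bases 2 to 8) in capitals. Mir17hg (chr14:115042879-115046727, plus strand), the host of the miR-17 to miR-92a cluster known for growth-promoting miRNAs, holds 2 pairs that share a seed:
miR-17-5p: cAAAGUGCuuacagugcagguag
miR-20a-5p: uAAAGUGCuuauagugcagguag
miR-19a-3p: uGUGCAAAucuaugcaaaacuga
miR-19b-3p: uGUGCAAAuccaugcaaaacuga

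A330023F24Rik (chr1:194976375-195037904, plus strand) holds miR-29b-2 and miR-29c, of a family known to act on collagen mRNAs, and Lncppara (chr15:85653616-85707524, plus strand) holds let-7c-2 and let-7b, of the let-7 family known for its part in differentiation. Within each host the sequences again share a seed:
miR-29b-3p: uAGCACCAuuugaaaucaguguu
miR-29c-3p: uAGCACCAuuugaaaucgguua
let-7c-5p: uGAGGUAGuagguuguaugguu
let-7b-5p: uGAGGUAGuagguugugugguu

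Dleu2 (chr14:61602839-61682373, minus strand), host of miR-15a and miR-16-1, is shown for contrast, since it was among the 3 lincRNAs that varied least over the 4 libraries:
miR-15a-5p: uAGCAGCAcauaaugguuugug
miR-16-5p: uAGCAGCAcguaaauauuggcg

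The seed GAGGUAG of let-7b and let-7c was also held by let-7d, hosted by 6720427I07Rik. The mature miRNAs were not measured in these mRNA libraries, so the values below are those of the host transcripts only.

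Most of the 192 lincRNAs were rare. Of them, 100 had a mean of 2 to under 5 CPM, 69 of 5 to under 20, 16 of 20 to under 100 and 7 of 100 CPM or more. The median of the mean levels was 4.77 CPM, against 37.5 CPM for the 9649 protein-coding genes with a mean of at least 2 CPM. The lowest count of any of them in any library was 7, above the floor of 3 counts. The log2 range over the 4 libraries had a median of 0.83, against 0.51 for those protein-coding genes, whose counts were also higher. Most had provisional names, 93 beginning with Gm and 54 ending in Rik.

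The share of all counts held by the 192 lincRNAs was 0.589% and 0.797% in the untreated control and siDNMT1 libraries and 1.20% and 1.17% in OB and siDNMT1_OB. Malat1, Xist and Neat1 alone held 60.7%, 68.6%, 79.8% and 80.3% of these lincRNA counts in the same order. The other 189 held between 0.230% and 0.250% of all counts in each library. The larger lincRNA share after OB induction therefore lay in these 3 RNAs, while the summed share of the rest differed little between libraries. Mitochondrial genes held 2.53% to 2.83% of the counts and protein-coding genes 83.8% to 84.2%.

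Malat1 (ENSMUSG00000092341, chr19:5795690-5802672, minus strand) is a nuclear speckle RNA. It held 52092, 73966, 135099 and 159505 counts in control, siDNMT1, OB and siDNMT1_OB, which is 1921, 2887, 5974 and 5961 CPM. Both OB libraries lay above both untreated ones. In such bulk libraries, more cells with the RNA and more RNA per cell cannot be told apart. The log2 fold change was 1.64 (1.62 to 1.65) for OB against control and 1.05 (1.03 to 1.06) for siDNMT1_OB against siDNMT1, and it was called higher in both. Between siRNAs it was 0.59 (0.57 to 0.60) in untreated cells and −0.00 (−0.01 to 0.01) in OB cells, neither of them called.

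Neat1 (ENSMUSG00000092274, chr19:5824708-5845478, minus strand), the neighbour of Malat1, held 14527, 18345, 34436 and 32655 counts in control, siDNMT1, OB and siDNMT1_OB, or 536, 716, 1523 and 1220 CPM. It was called higher in OB against control (log2 1.51, 1.48 to 1.54), while for siDNMT1_OB against siDNMT1 the value was 0.77 (0.74 to 0.80), short of the size threshold. None of 12 paraspeckle protein genes was called in any comparison, where 17.7% of all genes tested were called in OB against control and 9.53% in siDNMT1_OB against siDNMT1. Their median log2 fold change was −0.38 in OB against control and −0.34 in siDNMT1_OB against siDNMT1, against 0.01 and 0.00 over all genes tested, and 1 and 0 of the 12 had a positive value.

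Xist (ENSMUSG00000086503, chrX:103460366-103483254, minus strand) held 31228, 47665, 44526 and 60061 counts in control, siDNMT1, OB and siDNMT1_OB. It was lowest in control and highest in siDNMT1_OB, and it was not called in any comparison (log2 0.69, 0.19, 0.77 and 0.27 for siDNMT1 against control, siDNMT1_OB against OB, OB against control and siDNMT1_OB against siDNMT1). Its exons overlap those of the antisense gene Tsix, and the library kit named in the labels does not mark strand, so the reads of such pairs cannot be told apart. The cytoplasmic RNA 2900097C17Rik, the mouse counterpart of NORAD, which binds Pumilio proteins, had been placed on the same list. It held 5760, 4880, 4363 and 4809 counts, 212 CPM at most and 180 CPM at least.

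Per length, Malat1 led with a mean of 599 RPKM (CPM per kilobase of gene length), followed by Xist with 101 and Neat1 with 48.1 RPKM, and the median over the 192 lincRNAs was 2.18 RPKM. Gm26917 (chr17:39843013-39846341, plus strand), on the list of genes whose annotation overlaps ribosomal RNA repeats, came next with 46.5 RPKM. It held 5618, 5689, 2442 and 2202 counts in control, siDNMT1, OB and siDNMT1_OB. The 2 OB libraries lay under both untreated ones, and it was called lower in siDNMT1_OB against siDNMT1 (log2 −1.43, −1.50 to −1.36) but not in OB against control (−0.94, −1.01 to −0.87). The share of ribosomal RNA left in each library was not measured, and its part in this result was not tested.

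**Figure D1:**
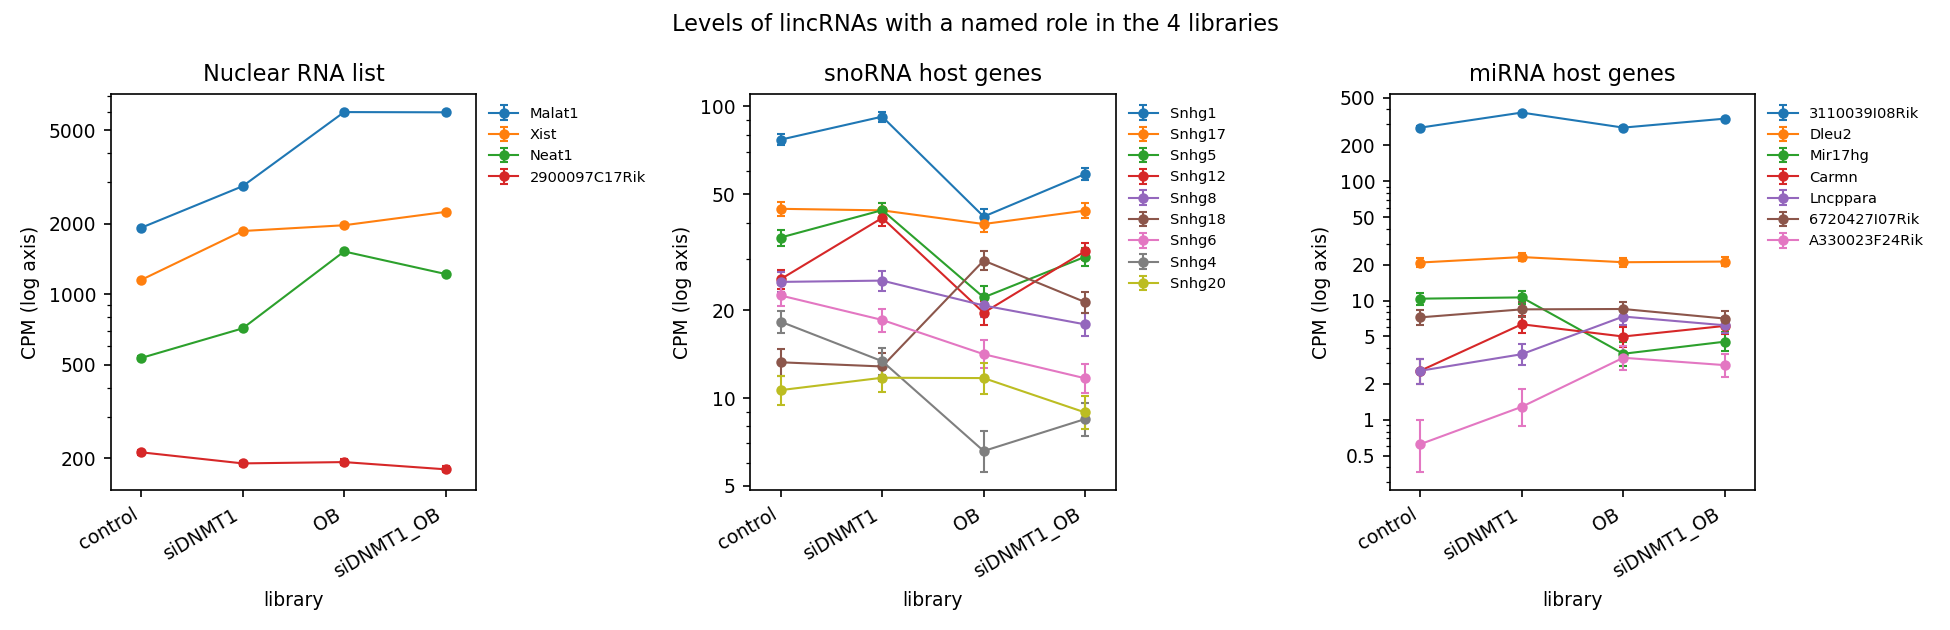
Levels in CPM (log axis) of lincRNAs of the nuclear RNA list, the snoRNA host genes and 7 miRNA host genes in the 4 libraries, with bars for exact 95% counting intervals and lines joining the libraries of one gene. Malat1 and Neat1 sit highest in the OB libraries, Snhg18 is the snoRNA host called higher in OB, Snhg4 the one called lower, and Mir17hg falls from 10.4 CPM in control to 3.58 CPM in OB.

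The snoRNA host genes carry snoRNAs, guides for chemical marks on ribosomal RNA, in their introns. Of the 9 among these lincRNAs, 7 had a negative log2 fold change in OB against control and 8 in siDNMT1_OB against siDNMT1, with medians of −0.38 and −0.50, against medians of 0.01 and 0.00 over all 13233 genes tested. Only 1 was called lower and 1 higher in OB against control, where 7.10% of all genes tested were called lower and 10.6% higher, and none in the other 3 comparisons.

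Snhg1, the most abundant host, held 2087, 2364, 948 and 1571 counts in control, siDNMT1, OB and siDNMT1_OB, and its log2 fold changes of −0.87 in OB against control and −0.65 in siDNMT1_OB against siDNMT1 missed the size threshold. Snhg12 held 694, 1063, 444 and 854 counts in the same order. It had the largest siDNMT1 value of the group in both states, 0.70 (0.56 to 0.84) untreated and 0.70 (0.53 to 0.87) in OB, neither of them called. Snhg4 held 496, 343, 149 and 227 counts in control, siDNMT1, OB and siDNMT1_OB and was called lower in OB against control (log2 −1.46, −1.75 to −1.21), and its exons overlap Gm28285 and Snora74a on the same strand. Snhg18 went the other way, with 360, 329, 670 and 571 counts and a log2 fold change of 1.15 (0.97 to 1.35) in OB against control. Snhg17, with 1209, 1128, 894 and 1176 counts, was among the 3 least variable lincRNAs.

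The genes of the snoRNA-protein particle were read beside these hosts. Of 10 tested, 5 were called lower in OB against control, where 7.10% of all genes tested were, and none in siDNMT1_OB against siDNMT1, where 2.71% were, with medians of −1.003 and −0.55. Of 10 factors of nonsense-mediated decay, the pathway that degrades many spliced snoRNA host transcripts, none was called in any comparison, and the medians lay between −0.14 and 0.02.

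Among the miRNA hosts, Mir17hg was called lower after induction with either siRNA. It held 281 counts in control (10.4 CPM, 9.18 to 11.6) and 272 in siDNMT1, against 81 in OB (3.58 CPM, 2.84 to 4.45) and 121 in siDNMT1_OB. The log2 fold change was −1.51 (−1.91 to −1.17) in OB against control and −1.22 (−1.55 to −0.92) in siDNMT1_OB against siDNMT1. The intervals of the OB libraries did not overlap those of the untreated ones.

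A330023F24Rik, host of the miR-29 pair shown above, went the other way, with 17, 33, 75 and 77 counts in control, siDNMT1, OB and siDNMT1_OB. It was called higher in OB against control (log2 2.27, 1.63 to 3.26) and in siDNMT1_OB against siDNMT1 (1.11, 0.55 to 1.79). It overlaps exons of Cd46 on the opposite strand, which was itself called higher in OB against control (log2 1.18), and reads of the 2 genes cannot be told apart. Lncppara, host of let-7c-2 and let-7b, held 70, 91, 166 and 166 counts and was called higher in OB against control (log2 1.48, 1.10 to 1.93), with 0.79 (0.43 to 1.19) in siDNMT1_OB against siDNMT1.

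The other 8 of the 11 hosts found by position were not called, so that 3 of 11 were called in OB against control, where 17.7% of all genes tested and 25.3% of protein-coding genes with a mean of 2 to under 20 CPM were. Carmn, which had been placed on the miRNA host list by name, was called and is described with its neighbour Bvht. The most abundant, 3110039I08Rik (chr9:41327077-41716994, plus strand), which spans miR-100, let-7a-2 and miR-125b-1, held 7595, 9593, 6337 and 8910 counts, with log2 fold changes of 0.42 between siRNAs in untreated cells and 0.25 in OB cells. AL805899.1, which spans miR-31, held 762, 670, 788 and 789 counts, and Dleu2 held 564, 592, 473 and 567. Over the 11 hosts the median log2 fold change was 0.22 for siDNMT1 against control, −0.20 for siDNMT1_OB against OB, 0.23 for OB against control and −0.11 for siDNMT1_OB against siDNMT1.

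Of the lincRNAs with a known developmental role, Bvht, linked to heart muscle commitment, held 325, 585, 301 and 399 counts in control, siDNMT1, OB and siDNMT1_OB. Its log2 fold change of 0.93 (0.73 to 1.13) between siRNAs in untreated cells missed the size threshold. Carmn, a gene of the miRNA host list that lies beside it and is known from smooth and heart muscle, held 70, 162, 113 and 164 counts and was called higher in siDNMT1 against control (log2 1.27, 0.88 to 1.72) and not in siDNMT1_OB against OB (0.29, −0.06 to 0.65). Crnde, beside Irx5, held 200, 206, 127 and 136 counts and was not called. Pvt1, downstream of Myc and linked to p53, held 279, 323, 265 and 359 counts and was not called, while Myc itself had a log2 fold change of −1.11 in OB against control.

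OB induction of cells with control siRNA gave the most calls. In OB against control, 47 of the 192 lincRNAs (24.5%) were called, 35 higher and 12 lower. Among all genes tested 17.7% were called, 10.6% higher and 7.10% lower. Protein-coding genes of a like level, 2 to under 20 CPM, were called at 25.3%, 16.4% higher and 8.88% lower, so the share of lincRNAs called was near that of rare mRNAs. The median log2 fold change of the 192 was 0.32, with 134 positive, against 0.13 for those mRNAs and 0.01 for all genes tested.

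Gm6093 (ENSMUSG00000112963, chr13:33562486-33569317, minus strand) had the largest value. It held 7, 19, 309 and 327 counts in control, siDNMT1, OB and siDNMT1_OB, or 0.258 CPM (0.104 to 0.532), 0.742 CPM (0.446 to 1.16), 13.7 CPM (12.2 to 15.3) and 12.2 CPM (10.9 to 13.6). The OB libraries lay well above both untreated ones, and the log2 fold change was 5.35 (4.67 to 7.05) with control siRNA and 3.91 (3.38 to 4.79) in siDNMT1_OB against siDNMT1. No expressed protein-coding gene lay within 300 kb, the nearest being Serpinb6a at 348601 bp.

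The next in order were Gm47662, Gm32817, Gm26797 and Gm39323, each low in both untreated libraries and higher in both OB libraries. Gm47662 (chr13:32997062-33001750, plus strand) held 18, 12, 142 and 76 counts in control, siDNMT1, OB and siDNMT1_OB, a log2 fold change of 3.10 (2.53 to 4.04) in OB against control. It lies 1500 bp from Serpinb9, an inhibitor of granzyme B, which held 3248, 1337, 6956 and 3872 counts and was called higher in the same comparison (1.36). Gm32817 held 18, 19, 123 and 92 counts (2.89, 2.31 to 3.84) and Gm26797 held 31, 52, 201 and 118 counts (2.88, 2.41 to 3.55). Gm39323 held 23, 20, 114 and 84 counts (2.47, 1.92 to 3.29) and starts 2325 bp from Thy1, a surface marker of MSCs, on the opposite strand. All 5 were also called higher in siDNMT1_OB against siDNMT1. Gm6093, Gm47662, Gm32817, Gm39323, A330023F24Rik above, Gm17552, Gm10814 and Gm26660 lay under 2 CPM in both untreated libraries. They met the mean of 2 CPM only through the OB libraries, so their calls in both induction comparisons are a description. The same holds for 2700046G09Rik and Gm6556, called higher in OB against control only. All of these are included in the numbers of lincRNAs called higher.

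Lowest in OB against control were Gm29630, 2700038G22Rik, 4930558J18Rik, Ptgs2os2 and Lockd. Gm29630 (chr1:132274716-132280411, minus strand) held 131, 38, 18 and 26 counts in control, siDNMT1, OB and siDNMT1_OB, so that control stood above the other 3 libraries (log2 −2.49, −3.40 to −1.88). The control library alone lifted Gm29630 to the mean of 2 CPM. 2700038G22Rik held 169, 141, 34 and 76 counts (−1.996, −2.63 to −1.51) and 4930558J18Rik held 78, 81, 19 and 33 (−1.69, −2.58 to −1.04). Ptgs2os2 held 127, 66, 33 and 35 counts (−1.63, −2.28 to −1.12). It is named for Ptgs2, the inducible cyclooxygenase, which lies 50816 bp away and was also called lower (−2.53), with 3512, 2781, 507 and 808 counts. The lincRNAs 4930558J18Rik and Ptgs2os2 lay under 2 CPM in both OB libraries. They met the mean of 2 CPM only through the untreated libraries, so their calls are a description. Lockd, downstream of the cell cycle inhibitor Cdkn1b, held 295, 250, 84 and 150 counts (−1.53, −1.92 to −1.20), while Cdkn1b had a log2 fold change of 0.34.

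**Figure D2:**
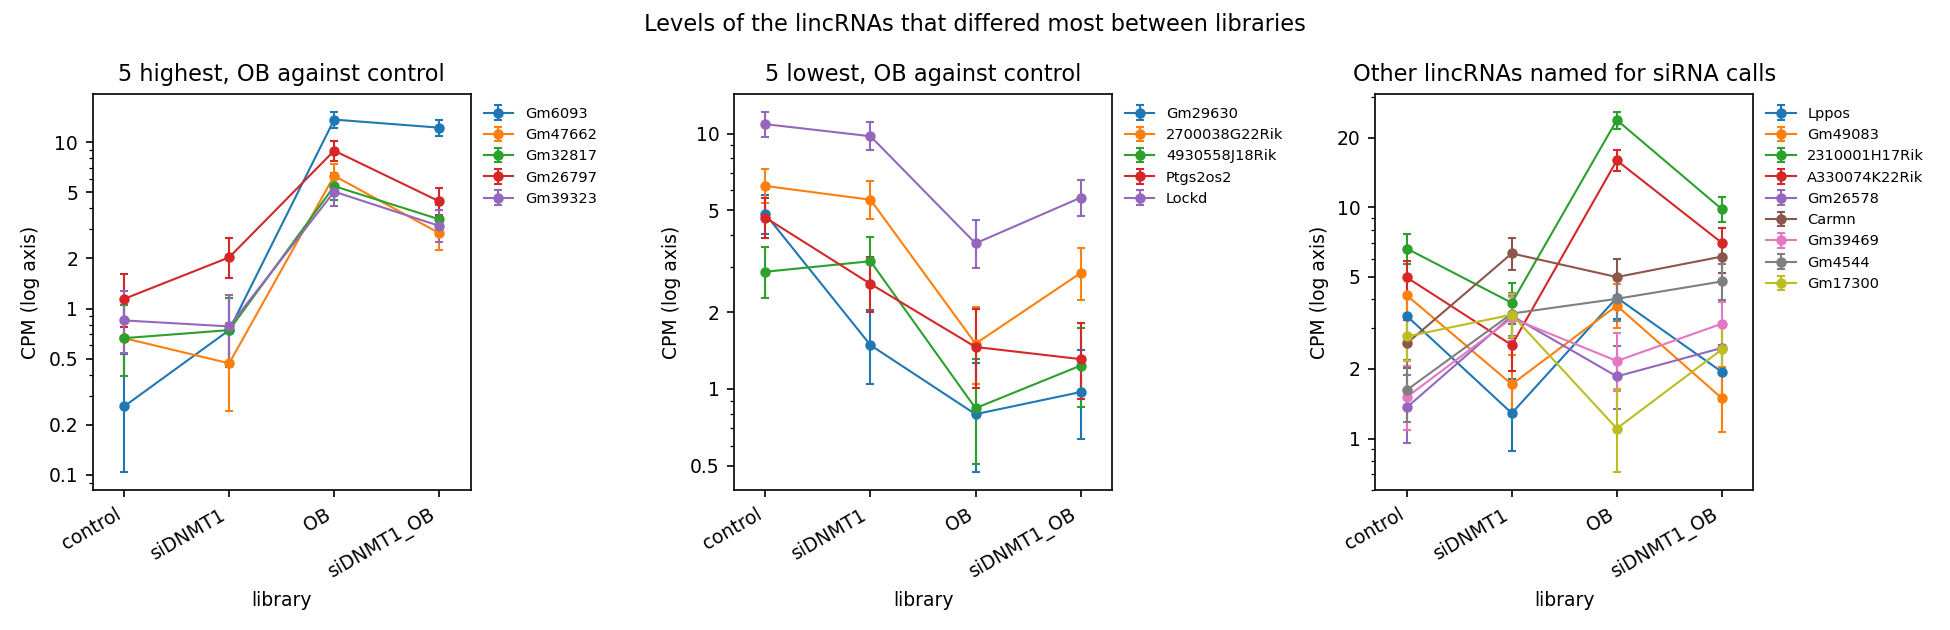
Levels in CPM (log axis) of the 5 lincRNAs with the highest and the 5 with the lowest log2 fold change in OB against control, and of the others named for calls between siRNAs, in the 4 libraries. Bars are exact 95% counting intervals, and Gm6093 goes from 0.258 CPM in control to 13.7 CPM in OB.

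The other induction comparison, that of the library labelled siDNMT1_OB with siDNMT1, gave fewer calls. In it, 22 of the 192 lincRNAs (11.5%) were called, 17 higher and 5 lower, against 9.53% of all genes tested (6.82% higher and 2.71% lower) and 15.3% of protein-coding genes of 2 to under 20 CPM. The highest after Gm6093 were Gm47662 (log2 2.42, 1.71 to 3.61), Gm32817 (2.10, 1.49 to 3.01), Gm39323 (1.91, 1.29 to 2.79) and A330074K22Rik (1.44, 1.06 to 1.90). The lowest were Gm26917, 4930558J18Rik (−1.30, −1.99 to −0.76), Gm35019 (−1.23, −1.86 to −0.71), Mir17hg and Gm14321 (−1.10, −1.77 to −0.54). Like 4930558J18Rik, Gm14321 lay under 2 CPM in both OB libraries. Both met the mean of 2 CPM only through the untreated libraries, so their calls in both induction comparisons are a description. The median over the 192 was 0.05.

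The 2 induction comparisons share no library. Of the 192 lincRNAs, 14 were called higher in both and 4 lower in both, which is 18 of the 47 called with control siRNA and 18 of the 22 called in siDNMT1_OB against siDNMT1, and none was called in opposite directions. Those shares are 38.3% and 81.8%, against 45.4% and 84.5% for all genes tested and 52.6% and 86.8% for protein-coding genes of 2 to under 20 CPM. Of the 35 called higher in OB against control, 33 had a positive value in siDNMT1_OB against siDNMT1, and all 12 called lower had a negative one. Over all genes tested the sign was kept for 97.0% of those called higher and 96.3% of those called lower. The sign was the same for 74.0% of the 192, against 79.6% of all genes tested. Across the 192 lincRNAs, which are not independent replicates, Pearson's r was 0.82 and Spearman's rho 0.72. The SD of the log2 fold change was 0.66 in siDNMT1_OB against siDNMT1 and 0.93 in OB against control.

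**Figure D3:**
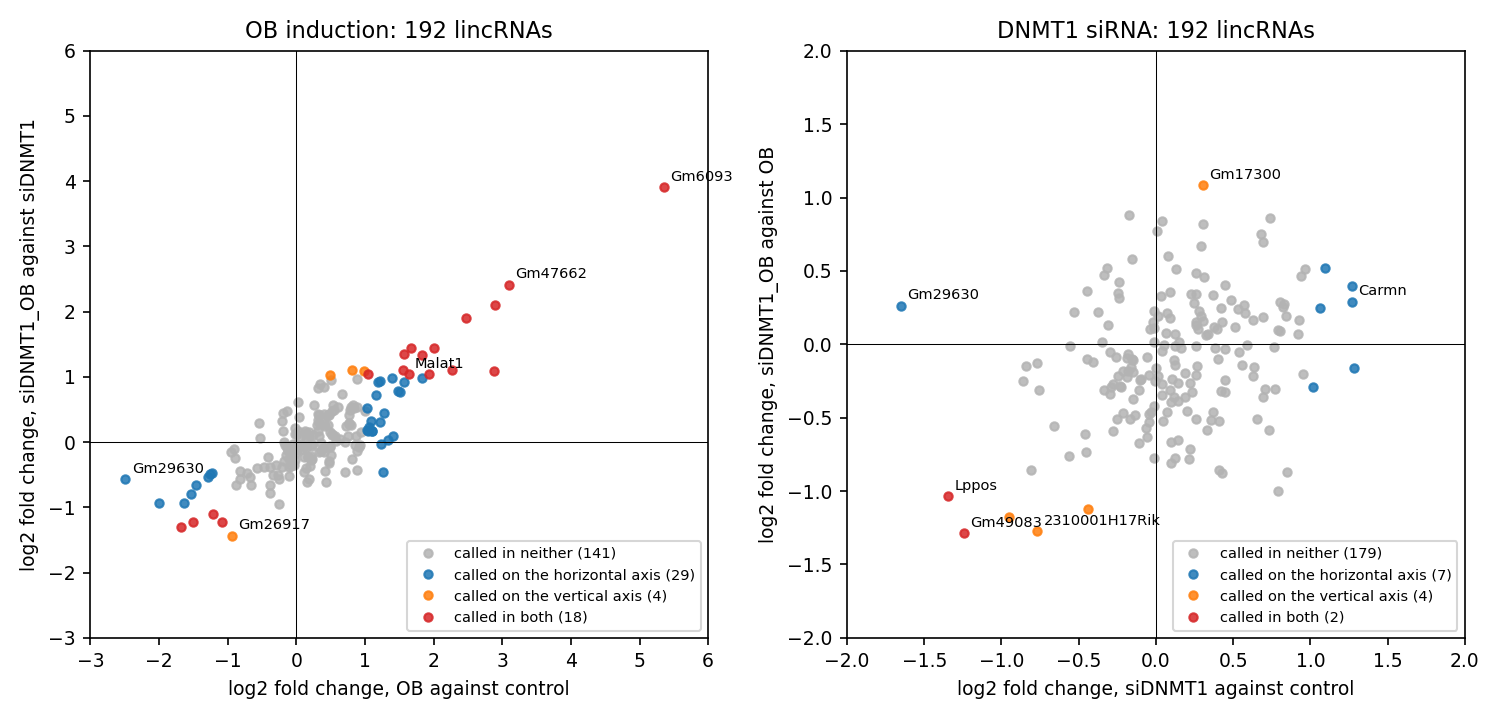
Log2 fold changes of the 192 lincRNAs, on the left for OB induction with control siRNA (horizontal) and with DNMT1 siRNA (vertical), on the right for DNMT1 siRNA in untreated (horizontal) and OB (vertical) cells, coloured by call. The left panel shows 18 called in both and the right panel 2, Lppos and Gm49083.

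Between siRNAs there were few calls. In siDNMT1 against control, 9 of the 192 lincRNAs (4.69%) were called, 6 higher and 3 lower, against 3.19% of all genes tested (1.86% higher and 1.33% lower) and 6.14% of protein-coding genes of 2 to under 20 CPM. In the library labelled siDNMT1_OB against OB, 6 (3.12%) were called, 1 higher and 5 lower, against 3.70% of all genes tested (2.35% higher and 1.35% lower) and 5.74% of those protein-coding genes. Neither share stood above that of mRNAs of a like level.

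Higher in siDNMT1 against control were Gm6093, Gm26578, Carmn, Gm39469, Gm4544 and 4632404H12Rik. Gm6093 (log2 1.29, 0.21 to 3.02) rested on 7 and 19 counts. Gm26578, which lies opposite exons of Nrg1, held 37 counts in control and 87 in siDNMT1 (1.27, 0.75 to 1.91). Gm39469 held 41 and 85 (1.09, 0.58 to 1.71), Gm4544 held 44 and 89 (1.06, 0.56 to 1.65) and 4632404H12Rik held 47 and 92 (1.02, 0.53 to 1.59). In the OB state none of these 6 was called, with values from −0.29 for 4632404H12Rik to 0.52 for Gm39469. Gm26578 lay under 2 CPM in control and in OB and met the mean of 2 CPM only through siDNMT1 and siDNMT1_OB. Gm6093 met that mean only through the OB libraries, so the calls of Gm26578 and Gm6093 are a description.

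Lower in both siRNA comparisons, which share no library, were Lppos and Gm49083. Lppos (chr16:24391612-24393588, minus strand) held 92, 33, 92 and 52 counts in control, siDNMT1, OB and siDNMT1_OB, or 3.39, 1.29, 4.07 and 1.94 CPM, so that the libraries labelled siDNMT1 and siDNMT1_OB lay under control and OB, although Dnmt1 itself was not lower in siDNMT1_OB than in OB. The log2 fold change was −1.34 (−2.02 to −0.81) in untreated and −1.04 (−1.59 to −0.56) in OB cells. It overlaps exons of Lpp, a gene for a focal adhesion protein, on the opposite strand. Gm49083 held 113, 44, 85 and 40 counts, with −1.24 (−1.82 to −0.76) and −1.29 (−1.91 to −0.77), and its whole transcript has a near-identical copy at another annotated gene. Lppos and Gm49083 each lay under 2 CPM in siDNMT1 and in siDNMT1_OB. They met the mean of 2 CPM only through control and OB, so their calls in both siRNA comparisons are a description. Gm29630 was called lower in untreated cells only (−1.65, −2.26 to −1.17), with 0.26 (−0.63 to 1.24) in OB cells.

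The other calls in the OB state were 2310001H17Rik, A330074K22Rik and Gm47662, lower in siDNMT1_OB, and Gm17300, higher. 2310001H17Rik held 180, 99, 540 and 263 counts in control, siDNMT1, OB and siDNMT1_OB, and its log2 fold change between siRNAs was −1.27 (−1.50 to −1.07) in OB cells and −0.77 (−1.15 to −0.42) in untreated cells. A330074K22Rik held 135, 65, 361 and 188 counts, with −1.18 (−1.45 to −0.93) and −0.95 (−1.42 to −0.53). Both were also called higher with induction under either siRNA. Gm47662 had −1.12 (−1.57 to −0.73), and its neighbour Serpinb9 was called lower too (−1.09). Gm17300 held 75, 88, 25 and 65 counts (1.08, 0.45 to 1.86) and lies opposite exons of Rcc1 and the snoRNA host Snhg3.

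The median log2 fold change of the 192 lincRNAs differed in sign between the siRNA comparisons. The median was 0.12 with 119 positive in siDNMT1 against control and −0.11 with 76 positive in siDNMT1_OB against OB, against −0.00 and 0.01 for all genes tested. It also differed in sign for the 1491 other noncoding genes with a mean of at least 2 CPM, at 0.03 and −0.01. For protein-coding genes of 2 to under 20 CPM the medians were 0.03 and 0.01. Between the 2 comparisons the sign was the same for 58.9% of the 192 and for 53.3% of all genes tested, and Pearson's r across the 192 was 0.31 (Spearman's rho 0.27). The siDNMT1 value was at least 1 lower in OB than in untreated cells for 12 lincRNAs and at least 1 higher for 2. Both directions together are 7.29% of the 192 against 6.23% of all genes tested. The share of all genes was not taken by direction, so the split of 12 and 2 is a description. The 12 were led by Gm26797, at 0.79 untreated and −0.998 in OB, and the 2 were Gm29630 and 2700038G22Rik, all 3 named here after their values were seen in this respect. With 1 library a group these differences were not tested.

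**Figure D4:**
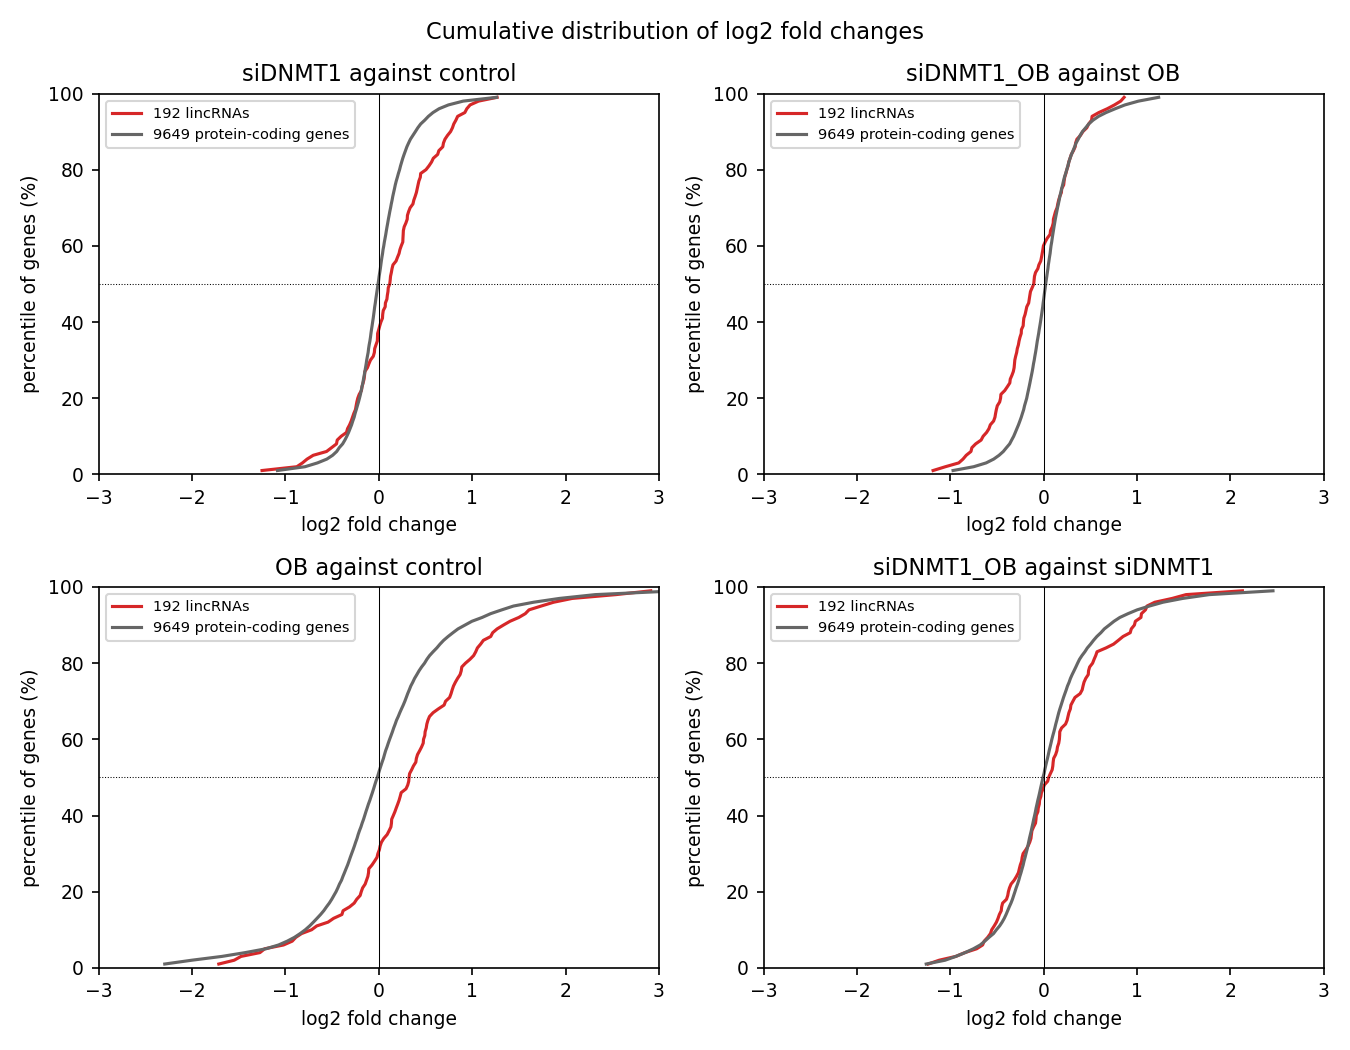
Cumulative distributions of the log2 fold change for the 192 lincRNAs (red) and 9649 protein-coding genes with a mean of at least 2 CPM (grey) in the 4 comparisons, with the percentile on the vertical axis. At the median the lincRNA curve lies to the right in OB against control (0.32 against −0.02). In siDNMT1_OB against OB it lies to the left there (−0.11 against 0.02), and the curves meet near the upper quartile, at 0.19 in both.

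Over the 4 libraries, 87 of the 192 lincRNAs were highest in OB, 45 in siDNMT1, 33 in siDNMT1_OB and 27 in control, and 84 were lowest in control. Highest and lowest libraries were not counted for other genes, so these numbers are not shown to be particular to lincRNAs. In all, 56 (29.2%) were called in at least 1 comparison and 136 in none, against 20.7% of all genes tested and 29.5% of protein-coding genes of 2 to under 20 CPM called in at least 1. The least variable was D930016D06Rik, with 442, 430, 405 and 464 counts in control, siDNMT1, OB and siDNMT1_OB. Of the 10 most abundant, 1700020I14Rik (133 to 168 CPM), Gm26525 (57.0 to 72.5 CPM) and Gm7292 (41.3 to 47.2 CPM) were not called.

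Position was described next, as lincRNAs often lie close to coding genes. Of the 192, 143 lay within 50000 bp of an expressed protein-coding gene and 95 within 5000 bp. The nearest such gene was in tandem for 78, divergent for 53, convergent for 29, and overlapping for 23 on the opposite and 9 on the same strand. In 28 divergent pairs the start sites lay within 1000 bp.

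Of the 47 lincRNAs called in OB against control, 8 had a nearest neighbour called in the same direction and 1, Gm4316 beside Dpep1, in the opposite one. By direction this was 5 of the 35 called higher and 3 of the 12 called lower. Among the lincRNAs not called, 4.14% had a neighbour called higher and 5.52% one called lower, and of the 9649 protein-coding genes with a mean of at least 2 CPM 8.98% were called higher and 6.82% lower. Gm26507, which starts 326 bp from the microfibril gene Fbn2, held 41, 75, 126 and 157 counts (log2 1.83, with 1.55 for Fbn2). 2310001H17Rik lies 21878 bp from the lectin gene Clec2d (1.84 and 1.75). The others were Gm47662 with Serpinb9, Gm17552 with Carns1, A330023F24Rik with Cd46, Ptgs2os2 with Ptgs2, Gm17300 with Rcc1 and Gm29630 with Klhdc8a. Among these, Gm47662, Gm17552, A330023F24Rik, Ptgs2os2 and Gm29630 met the mean of 2 CPM only through libraries where they were high. In 3 of the 8 pairs (those with Carns1, Cd46 and Rcc1) the exons overlap on opposite strands, so that reads of the 2 genes cannot be told apart. For 4930558J18Rik, which starts 76 bp from 1700066M21Rik, the neighbour held 421, 472, 196 and 333 counts (−0.83), and for A330074K22Rik, 226 bp from Gse1, the neighbour was at 0.15. In siDNMT1_OB against siDNMT1 the neighbour was called the same way for 4 of the 17 called higher and 0 of the 5 called lower, where 6.01% of those protein-coding genes were called higher and 2.51% lower. It was so for 1 of the 5 called lower in siDNMT1_OB against OB (0.943% of the protein-coding genes), and for none of the 6 called higher or the 3 called lower in siDNMT1 against control (1.58% and 1.20%). These counts are few and were not tested. The signs matched for 59.4% of all 192 pairs in OB against control and for 53.6% in siDNMT1 against control.

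**Figure D5:**
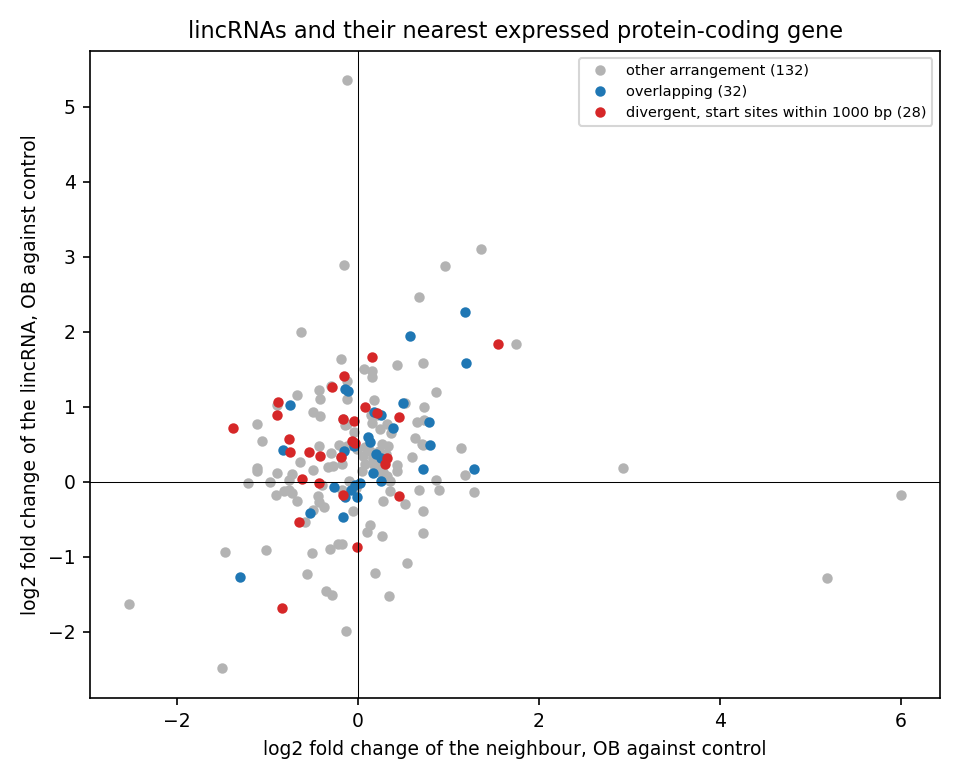
Log2 fold change in OB against control of each of the 192 lincRNAs (vertical) and of its nearest expressed protein-coding gene (horizontal), coloured by arrangement. Of the 28 divergent pairs with start sites within 1000 bp (red), Gm26507 and Fbn2 are a pair called in the same direction, at 1.83 and 1.55.

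DNMT1 acts on CG dinucleotides, so the promoters were read for them. RefSeq promoters (GRCm38.p6, 250 bases before to 50 after the start) matched 86 of the 192 lincRNAs within 1000 bp of the start in the table. They held a median of 18 CG dinucleotides (quartiles 9.25 and 29), against 7 (3 and 20) over all 32851 promoters. The promoters below are shown for the lincRNA with the largest OB value, the most abundant one, one that was lower in OB, and one lower in both comparisons between siRNAs, with each CG in capitals. Gm6093 (chr13:33569268-33569567, minus strand) held 1 CG, Malat1 (chr19:5802623-5802922, minus strand) 10, 4930558J18Rik (chr1:57377495-57377794, minus strand) 42 and Lppos (chr16:24393606-24393905, minus strand) 43:
Gm6093: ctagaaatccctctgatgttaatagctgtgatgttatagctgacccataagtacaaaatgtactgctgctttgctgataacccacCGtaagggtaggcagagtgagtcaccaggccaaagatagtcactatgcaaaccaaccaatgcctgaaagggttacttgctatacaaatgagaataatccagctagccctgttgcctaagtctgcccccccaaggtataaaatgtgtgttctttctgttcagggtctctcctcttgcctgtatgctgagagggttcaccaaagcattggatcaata
Malat1: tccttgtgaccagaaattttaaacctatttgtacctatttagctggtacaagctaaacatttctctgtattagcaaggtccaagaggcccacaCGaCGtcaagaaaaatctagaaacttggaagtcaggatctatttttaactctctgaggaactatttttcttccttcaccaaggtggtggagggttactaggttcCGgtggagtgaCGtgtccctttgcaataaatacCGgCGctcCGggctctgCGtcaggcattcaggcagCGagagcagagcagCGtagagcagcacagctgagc
4930558J18Rik: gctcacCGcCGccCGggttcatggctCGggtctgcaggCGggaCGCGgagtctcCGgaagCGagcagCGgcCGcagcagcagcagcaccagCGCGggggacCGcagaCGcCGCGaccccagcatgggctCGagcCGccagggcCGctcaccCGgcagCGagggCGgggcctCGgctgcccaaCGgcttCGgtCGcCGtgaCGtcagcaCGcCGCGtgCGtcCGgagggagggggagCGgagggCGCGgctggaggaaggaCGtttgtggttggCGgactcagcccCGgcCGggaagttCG
Lppos: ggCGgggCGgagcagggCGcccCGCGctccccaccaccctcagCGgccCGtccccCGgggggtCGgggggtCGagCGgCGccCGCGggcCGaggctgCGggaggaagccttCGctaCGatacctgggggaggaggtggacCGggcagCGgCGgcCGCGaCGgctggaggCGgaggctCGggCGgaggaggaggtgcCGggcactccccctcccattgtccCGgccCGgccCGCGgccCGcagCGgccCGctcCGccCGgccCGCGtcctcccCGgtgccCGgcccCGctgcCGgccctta

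Only some of the called lincRNAs had a matched promoter, at most 15 in one direction of a comparison. In OB against control the 15 called higher had a median of 13 CG (1 to 57), the 5 called lower 13 (10 to 42) and the 66 not called 19 (0 to 54). In siDNMT1_OB against siDNMT1 the 8 called higher had a median of 10.5 (1 to 33), the 2 called lower held 10 and 42, and the 76 not called had a median of 19.5. In siDNMT1 against control the 3 called higher held 1, 1 and 45, the 1 called lower, Lppos, held 43, and the 82 not called had a median of 18. In siDNMT1_OB against OB the 3 called lower had a median of 17 (7 to 43) and the 83 not called 18. The ranges of called and uncalled promoters overlapped in each comparison, and no test was run on so few. Methylation was not analysed here.

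Motifs were searched on both strands. The glucocorticoid response element core ACANNNTGT, relevant to the dexamethasone in the OB medium, occurred in 11 of the 86 promoters (12.8%), against 6.85% of all promoters, in 1 of the 15 called higher in OB against control, that of Gm6093, and in 3 of the 8 called higher in siDNMT1_OB against siDNMT1, those of Gm6093, 1700096K18Rik and 3110039M20Rik, the last pair named after their values were seen. None of those called lower in any comparison held it. Of the promoters not called, 10 of 66 held it in OB against control and 8 of 76 in siDNMT1_OB against siDNMT1. In siDNMT1 against control 1 of the 3 called higher and 10 of the 82 not called held it. The E-box CACGTG occurred in 9 (10.5%, against 7.15%), the core of the interferon-stimulated response element in 2 (2.33%, against 3.44%), the E2F motifs TTTCCCGC and TTTGGCGC in 2 each (against 1.07% and 0.514%), and the core of the p53 response element in 0 (against 0.712%). A match is a stretch of letters and not a bound site.

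Overlap with other genes bears on many of these counts. The span of 114 lincRNAs overlapped another gene of the table and 85 shared exonic sequence with one, 63 of them on the opposite strand, and 24 had a near-identical copy elsewhere. In OB against control, 20 of the 85 with exonic overlap (23.5%) and 15 of the 107 without (14.0%) were called higher. Of the 78 whose span overlapped no other gene, 9 (11.5%) were called higher and 4 (5.13%) lower, near the 10.6% and 7.10% of all genes tested and below the 16.4% and 8.88% of protein-coding genes of 2 to under 20 CPM, and their median log2 fold change was 0.38. How far reads of the overlapping genes enter the counts was not tested.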

How the data were processed

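The authors deposited whole-number read counts per gene for 4 libraries, not normalized. Per the study's methods and the submitters' processing notes, reads were trimmed with Trimmomatic, aligned with HISAT2 to mm10 and counted with featureCounts; versions, strand setting and handling of multiply aligned reads are not given in the sources used here. Gene type, position and length are the table's own. Of the 192 lincRNAs, 191 were found in GENCODE M21 (GRCm38), 187 with the same span, and 160 are typed as lincRNA there.

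From the counts, TMM factors (0.991 to 1.01) came from edgeR 4.0.16 under R 4.3.3, run on 13233 genes with a mean of at least 1 CPM. Levels in CPM are TMM-scaled, while the mean CPM that chose the lincRNAs used column totals. The read test is an exact two-sided binomial test (scipy 1.17.1). The calling script was tested on simulated data. Near-identical copies are BLAST 2.17.0 matches of at least 95% identity over at least 50% of the longest transcript, and overlaps used bedtools 2.31.1. The reads have a floor of 3 counts, 0.111 to 0.133 CPM.

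The lincRNAs, gene lists and alternatives were chosen with earlier results of these data known. Named are the 10 most abundant, the 5 highest and 5 lowest called in each comparison, all on a role list, the 3 least variable, the 2 on each side of the level limit, and their neighbours. Others were named after their values were seen. Alternatives were other scalings, filters and prior counts, edgeR's exact test with an assumed spread, an additive edgeR quasi-likelihood fit, and lincRNAs without overlap.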

Additional observations from a re-analysis of the deposited data

How the results depend on the processing

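Scaling by total counts or by DESeq2 1.42.0 size factors, a prior count of 0.5 and no filter on low counts left each count of calls within 1.5 times its value, with 35 to 37 higher in OB against control, and shifted the median of all genes by at most 0.04 on the log2 scale. Leaving out lincRNAs under a mean of 5 CPM kept 92 (a limit of 1 CPM would give 297) and gave 2 higher and 0 lower in siDNMT1 against control, 0 and 2 in siDNMT1_OB against OB, 14 and 5 in OB against control, and 7 and 2 in siDNMT1_OB against siDNMT1. Among the 78 without overlap there were 4 higher and 1 lower in siDNMT1 against control, 0 and 1 in siDNMT1_OB against OB, 9 and 4 in OB against control, and 5 and 3 in siDNMT1_OB against siDNMT1. In both cases fewer lincRNAs were tested.

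With edgeR's exact test at an assumed coefficient of variation of 0.2, no lincRNA was called between siRNAs (0 higher and 0 lower in each state, where at most 0.264% of all genes tested were called in a given direction), 21 were higher in OB against control and 9 lower (10.9% and 4.69%, against 7.61% and 5.23% of all genes tested), and 6 were higher and 1 lower in siDNMT1_OB against siDNMT1 (3.12% and 0.521%, against 3.78% and 0.793%). An additive edgeR quasi-likelihood fit of siRNA and induction, with 1 residual degree of freedom, called 0 higher and 0 lower for the siRNA (21 of 192, or 10.9%, at an unadjusted p under 0.05, against 8.68% of all genes tested) and 22 higher and 9 lower for induction (11.5% and 4.69%, against 7.19% and 4.15% of all genes tested, and 39 of 192 at an adjusted p under 0.05 whatever their size, against 2786 of 13233 genes, and 35.9% against 38% at an unadjusted p under 0.05). The calls between siRNAs therefore rest on a read test that allows for counting error alone, and neither alternative made any. The additive fit takes the same siRNA effect in both states, although Dnmt1 was not lower in siDNMT1_OB than in OB. Replicates could not be paired because each group held 1 library, and no library could be left out. Depth limits the 100 lincRNAs under a mean of 5 CPM most, for which single libraries held as few as 12 counts.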

Other observations

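Some of these lincRNAs are, by sequence, copies of other genes. Gm27000 on chromosome X is near-identical over its whole longest transcript to Meg3, an imprinted lncRNA that had been left out, and held 390, 447, 445 and 616 counts in control, siDNMT1, OB and siDNMT1_OB. Gm10076 matches the ribosomal protein gene Rpl41 over 99.7% of its transcript and held 400, 333, 305 and 318 counts, and at 34.6 RPKM it ranked among the most abundant per length. Gm7292 lies wholly within the sequence of 2900097C17Rik, with 1280, 1161, 991 and 1106 counts. Gm45351 is typed as an unprocessed pseudogene in GENCODE M21. Where the authors' counting placed reads that fit both copies was not tested. Among the 24 lincRNAs with such a copy, 2 were called higher and 2 lower in OB against control, against 33 and 10 of the 168 without. That is 8.33% each way with a copy and 19.6% and 5.95% without, where 10.6% of all genes tested were called higher and 7.10% lower.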
